A study of Mus musculus with 12 samples.

Results

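Rectal tissue of mice that carried an Lgr5-driven, tamoxifen-inducible Cre recombinase was compared with rectal tissue of mice without that driver. The carriers were chosen by title and genotype: 6 of the 12 libraries of the series carry the Lgr5 driver, and the other 6 do not. Of the carriers, 4 libraries are Lgr5-Apc (Lgr5creER with floxed Apc) and 2 are Lgr5-Cdx2-Apc (Lgr5creER and CDX2creER with floxed Apc). Of the non-carriers, 3 are Cdx2-Apc (CDX2creER with floxed Apc) and 3 are control, titled WT. For the control libraries the genotype entry reads CDX2creER;APC flox followed by (WT), which leaves unclear which alleles these mice had. A protocol of 25 mg/kg tamoxifen by intraperitoneal injection on 5 days stands on every library, but the treatment field is filled only in the 9 libraries with a floxed Apc title. No age, sex or strain is given, nor how either driver line was made. Floxed Apc is therefore not particular to carriers, and by title what all carriers share against all non-carriers is the Lgr5 driver. Y-linked expression, given below, also set carriers apart from non-carriers.

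Lgr5 is a receptor for R-spondins that marks the stem cells at the base of intestinal crypts, and Cdx2 is a transcription factor made throughout the hindgut epithelium. Apc is a scaffold of the complex that marks β-catenin for destruction, so that cells losing Apc keep Wnt target genes switched on. A Cre driven by Lgr5 acts in few epithelial cells, and a rectal sample also holds muscle, stroma, immune cells and, at the anal end, squamous epithelium. In RNA from whole tissue, fewer cells of a type and less RNA per cell cannot be told apart.

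Values are FPKM, fragments per kilobase of transcript scaled to library size, and differences are on the log2(FPKM + 1) scale, which understates the change of low genes. A gene was tested if 2 or more libraries reached 1 FPKM, which left 16610 autosomal genes. Total FPKM per library ran from 451297 to 728462, and depth in reads is unknown. The libraries differed in traits that the labels do not name, some of which followed the groups. Skeletal muscle genes stood at a mean log2(FPKM + 1) of 4.65 to 4.82 in 3 carriers (Lgr5-Apc replicate 2 and both Lgr5-Cdx2-Apc libraries) and at 0.38 to 1.77 in the other libraries. Xist, which is read from an inactive X chromosome, was at 61.1 to 266 FPKM in carriers, 98.1 to 154 in control and 0.702 to 1.12 in Cdx2-Apc. The Y-linked Eif2s3y was listed at 0 in all 6 carriers, and was at 0.13 to 3.06 in control and 24.7 to 28.5 in Cdx2-Apc. Eif2s3y, Ddx3y, Uty and Kdm5d each separated carriers from non-carriers and were lower in carriers. Their gaps on the log2(FPKM + 1) scale ran from 0.00765 (Ddx3y) to 0.176 (Eif2s3y). The labels give no sex, and between Lgr5-Cdx2-Apc and Cdx2-Apc sex-linked expression and the Lgr5 driver cannot be told apart. Genes on X and Y were therefore left out. That step does not take out autosomal differences that go with sex, and their part was not tested. Gapdh, which every cell uses, was listed at 0.138 to 1.13 FPKM, so a low value or a 0 in this table can be a failed estimate.

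In carriers, Sema7a, Fam43a, Mxd4, Ppp1r15a, Rnf39, Dnase1l2 and Gp1bb rose, and the phosphate importer Slc20a1, the cytochrome P450 Cyp2d9, the complement inhibitor C4bp, the histone gene Hist3h2a and the respiratory chain factor Cox20 were among the genes that fell. In 403 autosomal genes (2.43% of those tested) no library of one kind overlapped the other. In 196 of them (1.18%) every carrier lay above every non-carrier, and in 207 (1.25%) every carrier lay below. Most separated by little: the median gap between the nearest carrier and non-carrier was 0.08 on the log2(FPKM + 1) scale, and 169 genes had a gap of 0.1 or more. A difference of at least 1 on that scale was reached by 72 of the 207 lower genes and by 30 of the 196 higher genes. Narrow gaps inside the count were those of Arrdc2, at 5.62 to 12.7 against 3.65 to 5.62 FPKM, and of Zfp105, at 0.23 to 0.826 against 0.827 to 1.24 FPKM. Ulk1 fell just outside it with a gap of -6.48e-05.

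By limma, 7 autosomal genes were higher in carriers (0.0421%) and 23 were lower (0.138%) at an adjusted p below 0.05, and all 30 also separated the libraries. The smallest adjusted p was 0.0335. An unadjusted p below 0.05 was reached by 4593 genes, 2505 of them higher and 2088 lower. The calls stood close to the threshold. Leaving out any one of control replicates 2 and 3, Cdx2-Apc replicates 1 to 3, Lgr5-Apc replicate 2 or either Lgr5-Cdx2-Apc library left 0 higher genes and 0 or 1 lower gene. Leaving out Lgr5-Apc replicate 1 gave 1177 higher and 736 lower, leaving out Lgr5-Apc replicate 4 gave 1252 and 1059, leaving out control replicate 1 gave 31 and 60, and leaving out Lgr5-Apc replicate 3 gave 11 and 52. With median-of-ratios scaling 127 genes were higher and 100 lower, so that 56.0% of calls were higher in place of 23.3%, and with quantile normalization 76 and 98, or 43.7%. All 30 genes remained called under both scalings. The labels do not say whether the libraries came from different animals, so p-values measure only the spread between these libraries. Rose and fell are used for the 30 called genes, and other separating genes are given by their values.

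**Figure D1:**
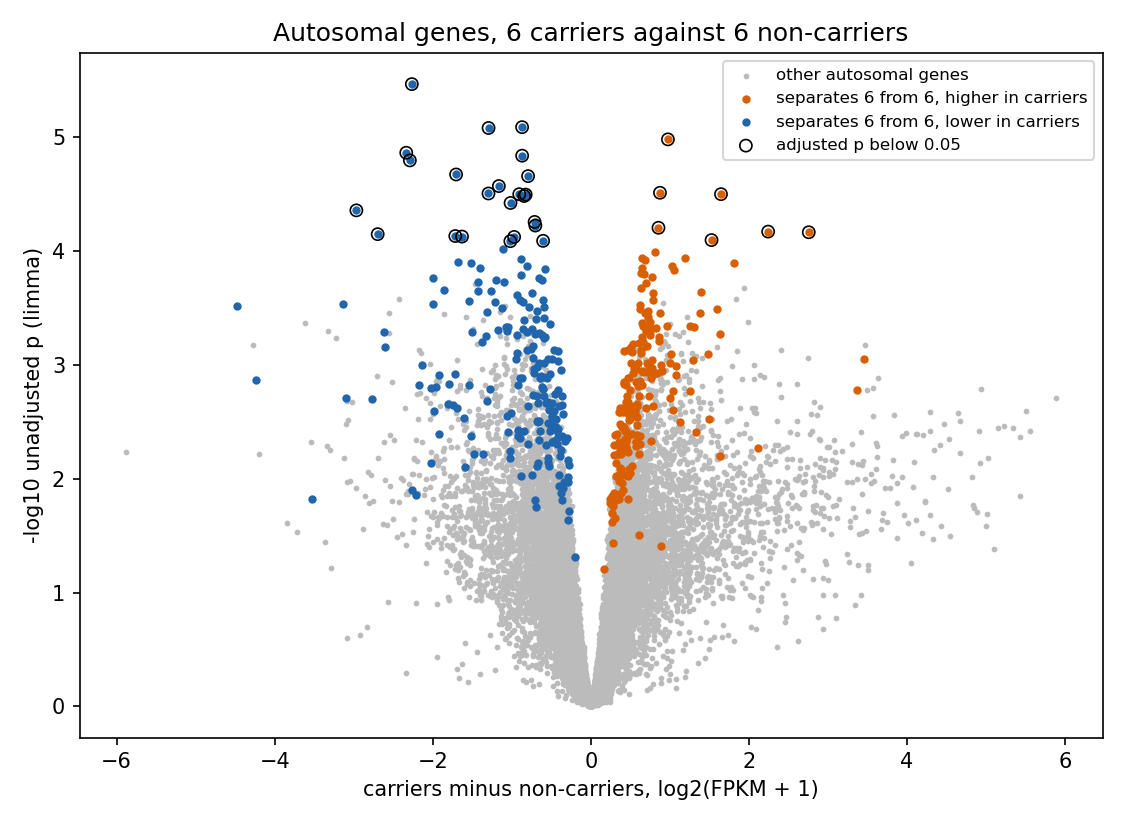
Difference between carriers and non-carriers on the log2(FPKM + 1) scale against -log10 of the unadjusted limma p, 1 point per autosomal gene (n = 6 libraries each). The 196 higher and 207 lower separating genes are coloured, circles mark the 30 with an adjusted p below 0.05, and the largest differences on the right belong to genes whose libraries overlapped.

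Among the 7 genes that rose, Sema7a had the widest gap of all separating higher genes (0.51). Sema7a is a membrane-anchored semaphorin that signals through integrins and plexin C1 (chr9:57940112-57962865, mm10). Its level was 0.70, 0.751 and 0.991 FPKM in control, 0.81, 0.766 and 1.11 in Cdx2-Apc, 2.01, 2.24, 2.29 and 3.02 in Lgr5-Apc, and 3.7 and 2.83 in Lgr5-Cdx2-Apc. All non-carriers lay near 1 FPKM and all carriers above 2 FPKM. The means were 2.68 ± 0.628 FPKM in carriers and 0.854 ± 0.16 in non-carriers (SD, n = 6 each), and the difference was 0.98 ± 0.14 (SE) with adjusted p = 0.0335 (limma). Fam43a, a gene of unsettled function (chr16:30599723-30602797), was at 4.64, 2.36 and 4.9 FPKM in control, 3.45, 1.59 and 3.2 in Cdx2-Apc, 7.06, 10.8, 12 and 22.7 in Lgr5-Apc, and 11.8 and 12.7 in Lgr5-Cdx2-Apc. Its carriers ranged widely, with Lgr5-Apc replicate 4 highest, but none overlapped a non-carrier. The difference was 1.65 ± 0.26 (SE), adjusted p = 0.0335 (limma).

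The promoters of 4 called genes with wide gaps are shown because their base make-up differs, 250 bases before to 50 after the RefSeq start on GRCm38.p6 (the mm10 sequence), with each CG pair in capitals. Sema7a (chr9:57939862-57940161, plus strand) and Fam43a (chr16:30599473-30599772, plus strand) are 2 genes that rose, and Slc20a1 (chr2:129198523-129198822, plus strand) and Cyp2d9 (chr15:82452127-82452426, plus strand) are 2 that fell.
Sema7a: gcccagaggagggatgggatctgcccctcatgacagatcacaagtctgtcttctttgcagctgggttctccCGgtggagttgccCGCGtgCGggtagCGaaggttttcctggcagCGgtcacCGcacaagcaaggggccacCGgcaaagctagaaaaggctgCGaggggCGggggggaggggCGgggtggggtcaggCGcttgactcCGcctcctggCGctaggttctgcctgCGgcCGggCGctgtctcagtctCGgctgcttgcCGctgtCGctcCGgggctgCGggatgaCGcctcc
Fam43a: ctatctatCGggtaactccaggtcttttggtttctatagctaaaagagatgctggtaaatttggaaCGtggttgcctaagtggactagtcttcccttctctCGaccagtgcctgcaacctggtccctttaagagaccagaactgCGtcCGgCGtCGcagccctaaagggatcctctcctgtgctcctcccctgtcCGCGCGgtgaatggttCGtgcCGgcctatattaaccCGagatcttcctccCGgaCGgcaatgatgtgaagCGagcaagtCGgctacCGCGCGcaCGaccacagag
Slc20a1: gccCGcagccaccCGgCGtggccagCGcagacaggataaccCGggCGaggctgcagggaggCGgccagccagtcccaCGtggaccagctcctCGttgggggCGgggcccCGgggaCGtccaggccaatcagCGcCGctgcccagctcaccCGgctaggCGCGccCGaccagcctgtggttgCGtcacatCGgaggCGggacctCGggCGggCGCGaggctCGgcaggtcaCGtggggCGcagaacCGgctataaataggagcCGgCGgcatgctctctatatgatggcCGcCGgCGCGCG
Cyp2d9: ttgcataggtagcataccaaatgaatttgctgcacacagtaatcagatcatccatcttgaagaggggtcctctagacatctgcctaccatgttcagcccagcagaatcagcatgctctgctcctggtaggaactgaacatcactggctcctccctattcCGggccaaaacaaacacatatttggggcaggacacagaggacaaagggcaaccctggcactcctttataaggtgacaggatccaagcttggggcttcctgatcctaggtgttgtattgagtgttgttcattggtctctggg
These windows hold 23, 21, 36 and 1 CG pairs and 67.3%, 55%, 73% and 49% GC in that order, so a gene that fell (Slc20a1) has the most CG pairs and another (Cyp2d9) the fewest. The Cyp2d9 start lies inside the gene's GENCODE span, downstream of its annotated 5′ end. The TCF/LEF motif CTTTGAT, or ATCAAAG on the other strand, is in none of these windows and in 2.53% of the 10741 promoters matched by symbol to the genes tested. Only 75% of separating higher and 60.4% of separating lower genes had a RefSeq promoter, under the 80% a comparison of the sets would need, so such a comparison is void.

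The other genes that rose have varied roles. Mxd4, a partner of Max that opposes Myc, was at 20.7, 16.1 and 23.7 FPKM in control, 17, 18 and 21.6 in Cdx2-Apc, 31.9, 38.5, 35 and 48.9 in Lgr5-Apc, and 36.7 and 29.7 in Lgr5-Cdx2-Apc. Every carrier stood above the highest non-carrier, and the difference of 0.88 ± 0.14 (SE) passed the test (adjusted p = 0.0335, limma). Ppp1r15a, which brings a phosphatase to the translation factor eIF2α after stress, ranged over 5.05 to 7.63 FPKM (median 5.82) in carriers and 2.07 to 4.29 (median 2.82) in non-carriers. Its difference was 0.86 ± 0.14 (SE), adjusted p = 0.0458 (limma). Dnase1l2, a DNase of differentiating keratinocytes, was at 1.51, 1.15 and 2.28 FPKM in control, 1.56, 0.801 and 1.63 in Cdx2-Apc, 2.51, 33.8, 24.1 and 12 in Lgr5-Apc, and 15.1 and 31 in Lgr5-Cdx2-Apc. Lgr5-Apc replicate 1 lay just above the non-carriers and the other carriers several times higher, and the difference was 2.76 ± 0.47 (SE) (adjusted p = 0.0458, limma). Rnf39, a RING finger gene next to the MHC, had the same shape, with 7.04 FPKM in Lgr5-Apc replicate 1, 13.5 to 39.8 in the other carriers and 2.16 to 6.56 in non-carriers. The squamous epithelium list had a mean log2(FPKM + 1) of 4.78, 9.06, 8.32 and 1.33 in Lgr5-Apc and 6.92 and 8.32 in Lgr5-Cdx2-Apc, and its part in Rnf39 and Dnase1l2 was not tested. Gp1bb, a subunit of a platelet receptor, was at 3.3 to 12.4 FPKM (median 9.01) in carriers and 0.931 to 3.15 (median 2.15) in non-carriers, but it overlaps the coding gene Sept5 on the same strand, so its reads may be shared. The plot of genes by library shows both shapes: a narrow shift in Sema7a and Mxd4, and a spread among carriers in Rnf39 and Dnase1l2.

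**Figure D2:**
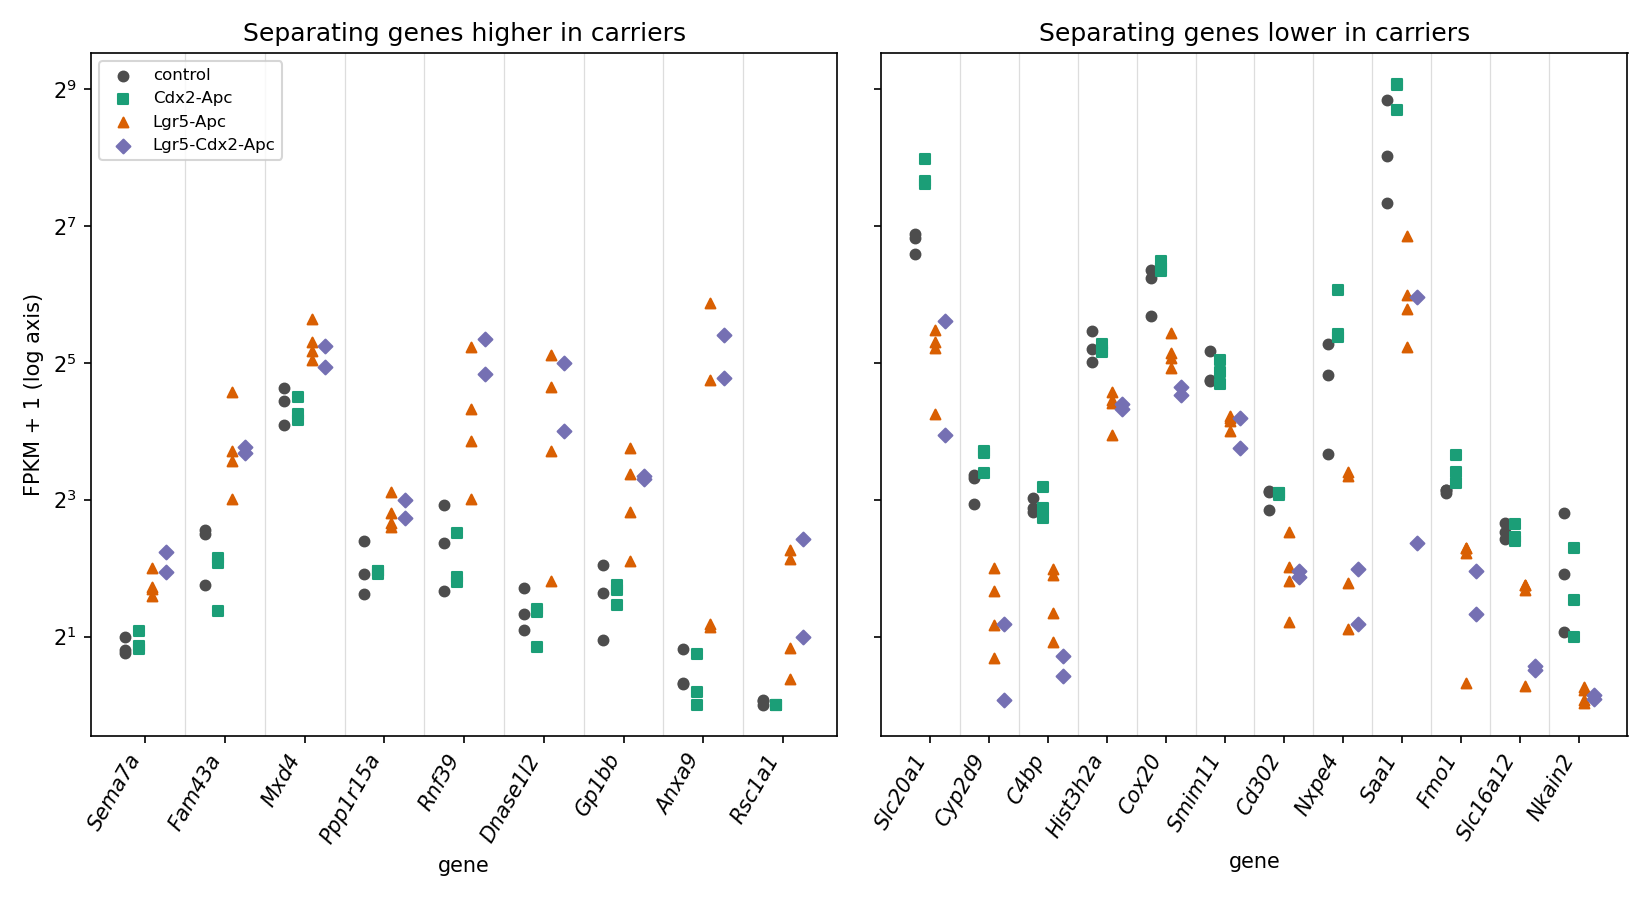
FPKM + 1 on a log2 axis for 9 separating genes higher in carriers (left) and 12 lower (right), 1 point per library, by group. Carriers are triangles and diamonds, non-carriers circles and squares; in each gene no carrier overlaps a non-carrier, from Sema7a (2.01 to 3.7 FPKM against 0.70 to 1.11) to Slc20a1 (14.4 to 47.7 against 95.1 to 252).

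Several genes separated by wide gaps without passing the test. Anxa9, an annexin of stratified epithelium, was at 0.761, 0.237 and 0.246 FPKM in control, 0, 0.143 and 0.67 in Cdx2-Apc, 1.26, 57.7, 26 and 1.19 in Lgr5-Apc, and 26.4 and 41.5 in Lgr5-Cdx2-Apc. In 4 carriers it was at 26 FPKM or more and in 2 near 1 FPKM, and the difference of 3.46 ± 0.80 (SE) had adjusted p = 0.0674 (limma). Rsc1a1 was at 0.299 to 4.37 FPKM (median 2.19) in carriers and 0 to 0.0553 (median 0.00338) in non-carriers, but it lies within Ddi2 on the same strand, and counts of the pair may be shared. Icmt, which methylates prenylated proteins, ranged over 16.1 to 21.7 against 9.07 to 13.2 FPKM in carriers and non-carriers (adjusted p = 0.0542, limma). Sidt2, a lysosomal membrane protein, was at 32.3 to 77.6 against 17.8 to 27.6 FPKM. Mapk7, the kinase also called ERK5, was at 4.84 to 6.21 against 2.49 to 3.9 FPKM, and Itpkc, an inositol trisphosphate kinase, at 14.1 to 24.6 against 6.3 to 11.7 FPKM. Samd1 was at 9.47 to 13.5 against 4.03 to 7.89 FPKM, Vps9d1 at 6.81 to 8.93 against 3.75 to 5.65 FPKM and Ssfa2 at 43.9 to 92.5 against 24.4 to 37.4 FPKM. These are shifts of less than 1 on the log2(FPKM + 1) scale except in Sidt2 (1.20), Ssfa2 (1.02), Rsc1a1 (1.48) and Anxa9.

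Among the named genes that fell, Slc20a1 had the widest gap (0.98). Slc20a1 is a sodium-coupled phosphate importer of the cell membrane (chr2:129198764-129211616). It was at 95.1, 117 and 113 FPKM in control, 199.8, 252 and 195 in Cdx2-Apc, 43.5, 18.1, 36 and 38.7 in Lgr5-Apc, and 47.7 and 14.4 in Lgr5-Cdx2-Apc. Cdx2-Apc libraries were the highest, control intermediate and all carriers at 47.7 FPKM or less. The means were 33.1 ± 13.7 FPKM in carriers and 162 ± 62.4 in non-carriers (SD, n = 6 each), with a difference of -2.29 ± 0.34 (SE) and adjusted p = 0.0335 (limma). Xpr1, the phosphate exporter, also separated the libraries, at 14.8 to 28 against 30.8 to 43.8 FPKM (adjusted p = 0.0658, limma). The epithelial phosphate importer Slc34a2 went the other way without separating them, at 7.65 to 32.7 against 5.11 to 11.5 FPKM, and Slc20a2 was at 10.4 to 19.1 against 8.12 to 16.1 FPKM. Xpr1, Slc34a2 and Slc20a2 were looked up after the value of Slc20a1 was seen.

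Cyp2d9, a cytochrome P450 that hydroxylates steroids (chr15:82433437-82456845), had the smallest p of all autosomal genes. It was at 6.62, 8.97 and 9.23 FPKM in control, 12, 11.9 and 9.52 in Cdx2-Apc, 3.02, 0.617, 2.16 and 1.25 in Lgr5-Apc, and 1.28 and 0.0557 in Lgr5-Cdx2-Apc. Non-carriers were all at 6.62 FPKM or more and carriers all at or below 3.02. The difference was -2.26 ± 0.29 (SE), adjusted p = 0.0335 (limma). Of 7 Cyp2d genes tested, 2 separated the libraries, both lower in carriers, against 1.25% of all autosomal genes. The second, Cyp2d10, was nearly constant in non-carriers (19.4 to 20.95 FPKM) and spread from 0.388 to 15.6 in carriers. In mouse liver Cyp2d9 is known to be higher in males. The control libraries, which had Xist, were lower than the Cdx2-Apc libraries, and the part of sex was not tested. The near-identical copies of this family can share reads, so the split among members is uncertain.

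Some other enzymes of drug metabolism separated lower without passing the test. Fmo1, a flavin monooxygenase, was at 7.86, 7.57 and 7.81 FPKM in control, 11.6, 9.55 and 8.51 in Cdx2-Apc, 3.64, 3.88, 3.89 and 0.255 in Lgr5-Apc, and 1.51 and 2.9 in Lgr5-Cdx2-Apc. Lgr5-Apc replicate 4 was the lowest and Lgr5-Apc replicates 1 to 3 lay together below every non-carrier (adjusted p = 0.0625, limma). Of 4 flavin monooxygenases tested 2 separated (Fmo1 and Fmo4), and of 21 glutathione transferases 3 did (Gsta3, Gstm1 and Gstt1), against 1.25% of all autosomal genes. Gsta3 was at 3.21 to 11.2 against 14 to 23.6 FPKM, Gstt1 at 1.54 to 20.9 against 22.2 to 32.6 FPKM and Gstm1 at 39.3 to 108 against 114 to 166 FPKM. These families were picked after values were seen, and no member but Cyp2d9 passed the test. The remaining members overlapped. Many of these enzymes are abundant in liver. Of 12 hepatocyte genes, a list chosen after values were seen, 11 were lower in carriers at an unadjusted limma p below 0.05. Of all 16610 autosomal genes, 2088 were. The hepatocyte list had a median difference of -2.16 and means of 0.72 to 3.58 in carriers and 1.89 to 6.24 in non-carriers. The part of these hepatocyte genes in the values of Cyp2d9 and these enzymes was not tested.

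The list of colonocyte genes, many of them transporters of absorbing surface cells, held the most separating genes. Of 22 autosomal colonocyte genes tested, 6 separated the libraries, all lower in carriers, against 1.25% of all autosomal genes. Of the 22, 0 were called (median difference -1.19, against 0.03 over all autosomal genes). Slc26a3, the chloride and bicarbonate exchanger of colonic surface cells, was at 253, 415 and 367 FPKM in control, 427, 470.1 and 425 in Cdx2-Apc, 227, 38.4, 156 and 78.8 in Lgr5-Apc, and 51.7 and 4.54 in Lgr5-Cdx2-Apc. Lgr5-Apc replicate 1 came close to the lowest control, and Lgr5-Cdx2-Apc replicate 2 had almost none (adjusted p = 0.0759, limma). Aqp8, a water channel, was at 1.39 to 161 against 191 to 350 FPKM, the sulfate transporter Slc26a2 at 42.2 to 228 against 246 to 442 FPKM and the membrane mucin Muc3 at 20.7 to 836 against 939 to 1536 FPKM. Saa1, an acute-phase protein that colon epithelium also makes, was at 160.4, 257 and 456 FPKM in control, 414, 537 and 531 in Cdx2-Apc, 62.3, 53.9, 114 and 36.6 in Lgr5-Apc, and 61 and 4.17 in Lgr5-Cdx2-Apc, a difference of -3.14 ± 0.63 (SE) with adjusted p = 0.0625 (limma). Plac8 was at 7.87 to 397 against 426 to 812 FPKM. Slc26a3 and Slc26a2 no longer separated under median-of-ratios scaling, quantile normalization or the GC correction, and kept their sign. The columnar epithelium list was lowest in 3 of the same libraries: its mean log2(FPKM + 1) was 8.03 to 8.77 in non-carriers, 6.35 to 8.59 in Lgr5-Apc and 6.33 and 3.84 in Lgr5-Cdx2-Apc. Its 8 markers were above 0 in every library, with Cdx1 lowest at 2.15 FPKM, and their part in the colonocyte values was not tested. Nxpe4, a gene of colon epithelium, was among those that fell, at 11.7, 37.6 and 27.3 FPKM in control, 40.5, 66 and 41.8 in Cdx2-Apc, 9.19, 1.16, 9.57 and 2.44 in Lgr5-Apc, and 2.96 and 1.28 in Lgr5-Cdx2-Apc (adjusted p = 0.0401, limma).

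Some genes of innate immunity separated lower, while no list of immune cells did as a whole. Of 14 macrophage and dendritic cell genes tested 1 was higher and 0 lower at an unadjusted limma p below 0.05. Of 6 neutrophil and mast cell genes 3 were higher and 1 lower. Over all 16610 autosomal genes, 2505 were higher and 2088 lower at that p. C4bp, which restrains the complement cascade (chr1:130634773-130661632), fell: it was at 7.13, 6.07 and 6.38 FPKM in control, 8.06, 6.35 and 5.66 in Cdx2-Apc, 2.75, 0.891, 2.95 and 1.55 in Lgr5-Apc, and 0.641 and 0.341 in Lgr5-Cdx2-Apc. Non-carriers spanned a narrow band from 5.66 to 8.06 FPKM, and the difference was -1.70 ± 0.26 (SE) with adjusted p = 0.0335 (limma). C4bp is also made by hepatocytes, and the part of the hepatocyte genes given above was not tested. Among other complement genes, Cfb (3.21 to 28.3 against 30.8 to 52.1 FPKM) and C7 (0 to 0.137 against 0.167 to 1.95 FPKM) also separated and were lower. Alpk1, a sensor of bacterial sugars, fell from 8.48 to 11.4 FPKM in non-carriers to 3.49 to 6.86 in carriers (adjusted p = 0.0335, limma). Cd302, a lectin receptor of phagocytes, fell too, at 1.32 to 4.77 against 6.21 to 7.77 FPKM.

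Both Trim30 genes tested, which restrain inflammatory signalling, separated lower: Trim30a was at 0.897 to 2.02 against 2.96 to 5.2 FPKM and Trim30d at 1.66 to 8.34 against 11 to 13.2 FPKM. So did all 3 genes of the Sp100 family tested, nuclear body proteins induced by interferon, with Sp100 at 1.25 to 4.43 against 5.32 to 6.99 FPKM, Sp110 at 0.347 to 1.42 against 1.73 to 2.59 FPKM and Sp140 at 0.181 to 0.871 against 0.873 to 1.23 FPKM. None of the 5 passed the test, and the families were picked after values were seen. Of all autosomal genes, 1.25% separated lower. After the GC correction Sp110 alone of the 5 still separated, with the same sign in all. Of 19 interferon response genes on the list, only Ifit2 separated (0.54 to 1.5 against 1.62 to 3.99 FPKM). At an unadjusted limma p below 0.05, 6 were lower and 0 higher, against 2088 and 2505 of all 16610 autosomal genes. Trim30a is also one of 10 genes tested from a list known to differ between inbred strains. Of these, Trim30a and Pla2g2a separated, Nnt was at 3.95 to 9.2 against 7.78 to 11.2 FPKM, and the list's median difference was -0.02. No strain is given in the labels, and the part of strain in the differences was not tested.

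Antibody genes were the only separating autosomal genes listed at 0 FPKM in every carrier, 4 in all. These were Ighv1-85 and the kappa segments Igkv4-55, Igkv10-94 and Igkv4-91. Of 46 kappa and 48 heavy chain variable segments tested, 3 and 1 separated lower, against 1.25% of all autosomal genes. Ighv1-85, a heavy chain variable segment, was at 3.32, 4.28 and 4.94 FPKM in control and 0.972, 1.71 and 0.722 in Cdx2-Apc, and it was called (adjusted p = 0.0458, limma). The kappa constant gene Igkc separated too: it was at 7.78, 491 and 187 FPKM in control, 214, 22.5 and 18.8 in Cdx2-Apc, 4.3, 0.238, 3.88 and 1.97 in Lgr5-Apc, and 1.65 and 1.61 in Lgr5-Cdx2-Apc. Igkc varied widely among the non-carriers themselves, with control replicate 1 nearest to the carriers. Summed over 46 kappa segments tested, FPKM was 9.62, 592.1 and 267.7 in control, 209.5, 36.2 and 18.2 in Cdx2-Apc, 6.35, 1.41, 12.2 and 4.06 in Lgr5-Apc, and 3.15 and 1.83 in Lgr5-Cdx2-Apc, so the sum did not separate the libraries. Igha, the constant gene of mucosal antibody, overlapped as well (0.734 to 4.18 against 1.38 to 139.7 FPKM), as did Jchain, which joins antibody chains (0.247 to 3.44 against 1.67 to 94.1 FPKM). Of 6 genes of the B and plasma cell list tested, 0 separated.

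The remaining genes that fell have no shared role. Hist3h2a, a histone H2A gene that overlaps Trim17 on the same strand, was at 31.4, 43.1 and 35.8 FPKM in control, 34.8, 37.7 and 35.6 in Cdx2-Apc, 14.4, 22.7, 20.2 and 21 in Lgr5-Apc, and 19 and 20 in Lgr5-Cdx2-Apc. The ranges were tight on both sides, and the difference was -0.87 ± 0.12 (SE) (adjusted p = 0.0335, limma). Cox20, an assembly factor of cytochrome oxidase, was at 22.1 to 42.1 against 50.4 to 88.7 FPKM with control replicate 1 the lowest non-carrier. Smim11 was at 12.5 to 17.6 against 24.9 to 35.1 FPKM, Tmem168 at 13.7 to 21.7 against 24 to 34.8 FPKM, the mitochondrial pyrimidine nucleotide carrier Slc25a36 at 14.2 to 25.1 against 28.8 to 35.9 FPKM and Rida, a deaminase of reactive imines, at 8.58 to 13.6 against 16.6 to 30.3 FPKM. Differences of these 6 lay between -1.29 (Cox20) and -0.79 (Smim11), with adjusted p from 0.0335 to 0.0364 (limma). Nkain2, a partner of the sodium pump, was at 0.0246 to 0.196 FPKM (median 0.086) in carriers and 0.996 to 5.98 (median 2.33) in non-carriers, with adjusted p = 0.0458 (limma). Among genes that separated without passing the test, Mettl7a2, which overlaps Methig1 on the same strand, was at 0 to 3.18 against 5.25 to 9.41 FPKM and Slc16a12, a monocarboxylate and creatine transporter, at 0.217 to 2.38 against 4.27 to 5.32 FPKM. Of 4 enolase genes tested, the muscle form Eno3 (7.66 to 89.2 against 104 to 259.6 FPKM) and the retrocopy Eno1b (0 to 0.144 against 0.397 to 15.5 FPKM) separated. The share over all autosomal genes was 1.25% lower. Eno1b was at 0.919 and 0.397 FPKM in 2 Cdx2-Apc libraries and at 9.16 to 15.5 in the other non-carriers, and it shares sequence with Eno1, so its level is uncertain.

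Neither the driver genes nor the Wnt target genes separated carriers from non-carriers. Lgr5 itself was at 3.6, 5.4 and 5.95 FPKM in control, 2.81, 3.77 and 4.16 in Cdx2-Apc, 1.75, 1.3, 1.4 and 4.72 in Lgr5-Apc, and 4.48 and 3.77 in Lgr5-Cdx2-Apc (adjusted p = 0.226, limma). The ranges overlapped, with 3 Lgr5-Apc libraries the lowest of all and replicate 4, like both Lgr5-Cdx2-Apc libraries, among the non-carriers. Apc was at 13.5 to 18.6 against 15.3 to 18.8 FPKM (adjusted p = 0.308, limma), and its reads do not show whether the floxed exon was removed. Cdx2 was at 0.248 to 151 against 2.71 to 30.4 FPKM (adjusted p = 0.489, limma), with 151 FPKM in Lgr5-Apc replicate 4 alone. Of 19 autosomal Wnt target genes tested, 0 separated and 0 were called. At an unadjusted limma p below 0.05, 5 were higher and 2 lower, among them Cd44 (1.75), Tnfrsf19 (1.94), Apcdd1 (1.89) and Prox1 (-0.65). Of all 16610 autosomal genes, 2505 were higher and 2088 lower at that p. The Wnt list's median difference was 0.04 in Lgr5-Apc minus control and 0.65 in Lgr5-Cdx2-Apc minus Cdx2-Apc, against 0.04 over all autosomal genes in each. Its mean log2(FPKM + 1) was 3.43 and 3.42 in Lgr5-Cdx2-Apc and 2.38 to 3.05 in the other libraries. Axin2, the usual readout of the pathway, was at 5.85 to 20.5 against 6.98 to 12.7 FPKM with a difference of 0.00. The intestinal stem cell list, with 13 genes tested, had a median difference of 0.01, which was -0.14 to -0.02 under the other scalings. The list of Lgr receptors and R-spondins had one of 0.05 over 8 genes, and -0.10 to 0.04 under the other scalings.

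Some regulators of Wnt signalling did separate, and were picked after values were seen. Axin1, a scaffold of the destruction complex, was at 14.3 to 20.4 against 9.78 to 14.2 FPKM, Ctnnbip1, which keeps β-catenin from TCF, at 9.52 to 46.6 against 4.84 to 9.21 FPKM, and the kinase Csnk1e at 7.1 to 21.5 against 4.47 to 6.6 FPKM, each higher in carriers. Frzb, a secreted Wnt antagonist, was lower, at 0.0657 to 0.993 against 1.37 to 2.48 FPKM. Their adjusted p ran from 0.0608 in Frzb to 0.0931 in Axin1 (limma), so none was called. How many regulators of Wnt signalling were tested was not counted. Of all autosomal genes, 1.18% separated higher and 1.25% lower. Cdkn1a, an inhibitor of the cell cycle, was at 82.4 to 105 against 41.4 to 79.8 FPKM, Socs1, which damps cytokine signals, at 1.58 to 7.86 against 0.759 to 1.38 FPKM, and the chromatin remodelling subunits Arid1a and Arid1b at 20.5 to 29 against 12.5 to 20.4 FPKM and 16 to 21.7 against 9.47 to 15.1 FPKM. Of 32 genes tested whose symbol starts with Vps, 4 separated higher (Vps37c, Vps52, Vps33a and Vps9d1), against 1.18% of all autosomal genes. The median difference of the 32 was 0.14, and they were grouped by symbol alone. Families were looked at under other scalings, the Vps, Socs and Arid1 genes and those of the families above among them, but not Axin1, Ctnnbip1, Csnk1e, Frzb or Cdkn1a. Of their 40 separating genes none changed sign under median-of-ratios scaling, quantile normalization or a correction for GC content, and 33, 28 and 20 of them still separated. Arid1a and Arid1b no longer separated under quantile normalization or the GC correction. Socs1 and Vps52 no longer did after the GC correction, nor Vps33a under quantile normalization. Of the 181 autosomal genes tested within 20 Mb of Lgr5 on chromosome 10, 1 separated, against 2.43% of all autosomal genes. It was Tmem5, at 2.57 to 4.07 against 4.19 to 5.93 FPKM, with a gap of 0.03 and adjusted p = 0.103 (limma).

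Carriers were also compared with non-carriers in each background, without the Cdx2 driver in the title (Lgr5-Apc against control) and with it (Lgr5-Cdx2-Apc against Cdx2-Apc). Lgr5-Apc and control differ in the floxed Apc title and the filled tamoxifen field as well, so these and the Lgr5 driver cannot be told apart there. Lgr5-Cdx2-Apc and Cdx2-Apc differ in Xist, Y-linked genes and skeletal muscle genes, as given above. Those traits and the Lgr5 driver cannot be told apart in that background. In a fit with 1 term per group, 0 autosomal genes were higher (0%) and 2 lower (0.012%) in Lgr5-Apc than in control. These were Ighv1-85 and Snora61, a small nucleolar RNA listed at 0 in every library but the control ones, and 1815 genes had an unadjusted p below 0.05. Without control replicate 1 the lower count was 31. In Lgr5-Cdx2-Apc against Cdx2-Apc, 2020 genes were higher (12.2%) and 1943 lower (11.7%), falling to 58 and 45 without Lgr5-Cdx2-Apc replicate 2 and to 281 and 723 without replicate 1, each leaving 1 library assumed to vary like the other groups. Over autosomal genes the differences in the 2 backgrounds had the same sign in 66.1%, and r was 0.57 across genes, which are not independent replicates. The difference between backgrounds itself passed the test in 196 genes in the higher direction (1.18%) and 61 in the lower (0.367%). The limits named for each background hold for that test as well.

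**Figure D3:**
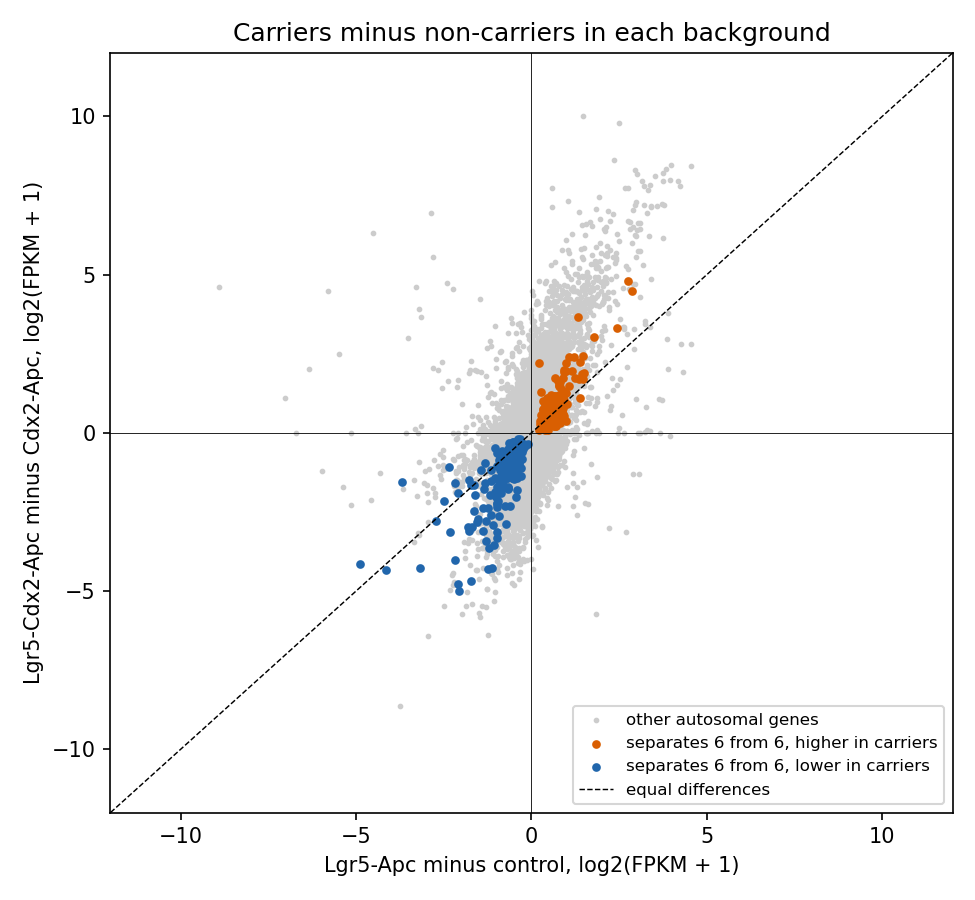
Lgr5-Cdx2-Apc minus Cdx2-Apc (vertical, n = 2 and 3) against Lgr5-Apc minus control (horizontal, n = 4 and 3, which differ also in the floxed Apc title and tamoxifen field), on the log2(FPKM + 1) scale, 1 point per autosomal gene. Separating genes have the same sign on both axes by construction, and many lie further from 0 on the vertical axis than on the horizontal one. The groups of the vertical axis differ also in sex-linked and skeletal muscle genes.

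Of the 30 called genes, 25 had the larger difference in the background with the Cdx2 driver. The share of all autosomal genes with a larger difference there was not counted, so the 25 cannot be read as a trait of the called genes. Calls are another measure than the size of the difference. Over all autosomal genes, 12.2% were called higher and 11.7% lower in that background, against 0% and 0.012% in the other. Sema7a differed by 0.90 in Lgr5-Apc minus control and 1.17 in Lgr5-Cdx2-Apc minus Cdx2-Apc, Slc20a1 by -1.70 in Lgr5-Apc minus control and -2.97 in Lgr5-Cdx2-Apc minus Cdx2-Apc, and Cyp2d9 by -1.82 in Lgr5-Apc minus control and -2.96 in Lgr5-Cdx2-Apc minus Cdx2-Apc. Hist3h2a differed about equally, by -0.88 in Lgr5-Apc minus control and -0.85 in Lgr5-Cdx2-Apc minus Cdx2-Apc. For none of the named genes did the test of the difference between backgrounds pass. Among all 403 separating genes it passed in 2. Gstm1 was at 114, 146 and 134 FPKM in control, 166, 147 and 131 in Cdx2-Apc, 84.7, 106, 95.7 and 108 in Lgr5-Apc, and 39.3 and 44.1 in Lgr5-Cdx2-Apc, and Ctsw, a protease of cytotoxic lymphocytes, at 0.179, 0.146 and 0.187 FPKM in control, 0, 0.203 and 0.125 in Cdx2-Apc, 0.244, 0.344, 0.30 and 0.519 in Lgr5-Apc, and 3.8 and 4.49 in Lgr5-Cdx2-Apc. In Gstm1 the Lgr5-Cdx2-Apc libraries were far lower than Lgr5-Apc (adjusted p = 0.0218 for the difference between backgrounds, limma), and in Ctsw far higher (adjusted p = 0.00383).

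Separating higher and separating lower genes differed in the base composition of their transcripts. The median GC content of the longest transcript was 55.2% in separating higher genes, 45.5% in separating lower genes and 49.5% over all autosomal genes, with a transcript matched for 96.4%, 96.1% and 98.0%. Genes were split by GC into 5 equal groups. In the group with the lowest GC, 1 gene separated higher (0.0307%) and 69 lower (2.12%). In the group with the highest GC, 94 separated higher (2.89%) and 5 lower (0.154%). Transcripts of higher genes were also longer (median 3976 against 2583 bases). In single libraries, the shift of the highest against the lowest GC group was 0.08 to 0.31 in the 4 Lgr5-Apc libraries and -0.38 to 0.07 in the 6 non-carriers, while the 2 Lgr5-Cdx2-Apc libraries stood at 0.11 and -0.30. After each library was corrected for GC and length, 223 genes separated higher and 158 lower, of which 88 and 98 were among the first 196 and 207, and their median GC was 49.8% and 49.5%. Of the 30 called genes 4 remained: Cyp2d9, Hist3h2a, Smim11 and an unnamed gene model.

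**Figure D4:**
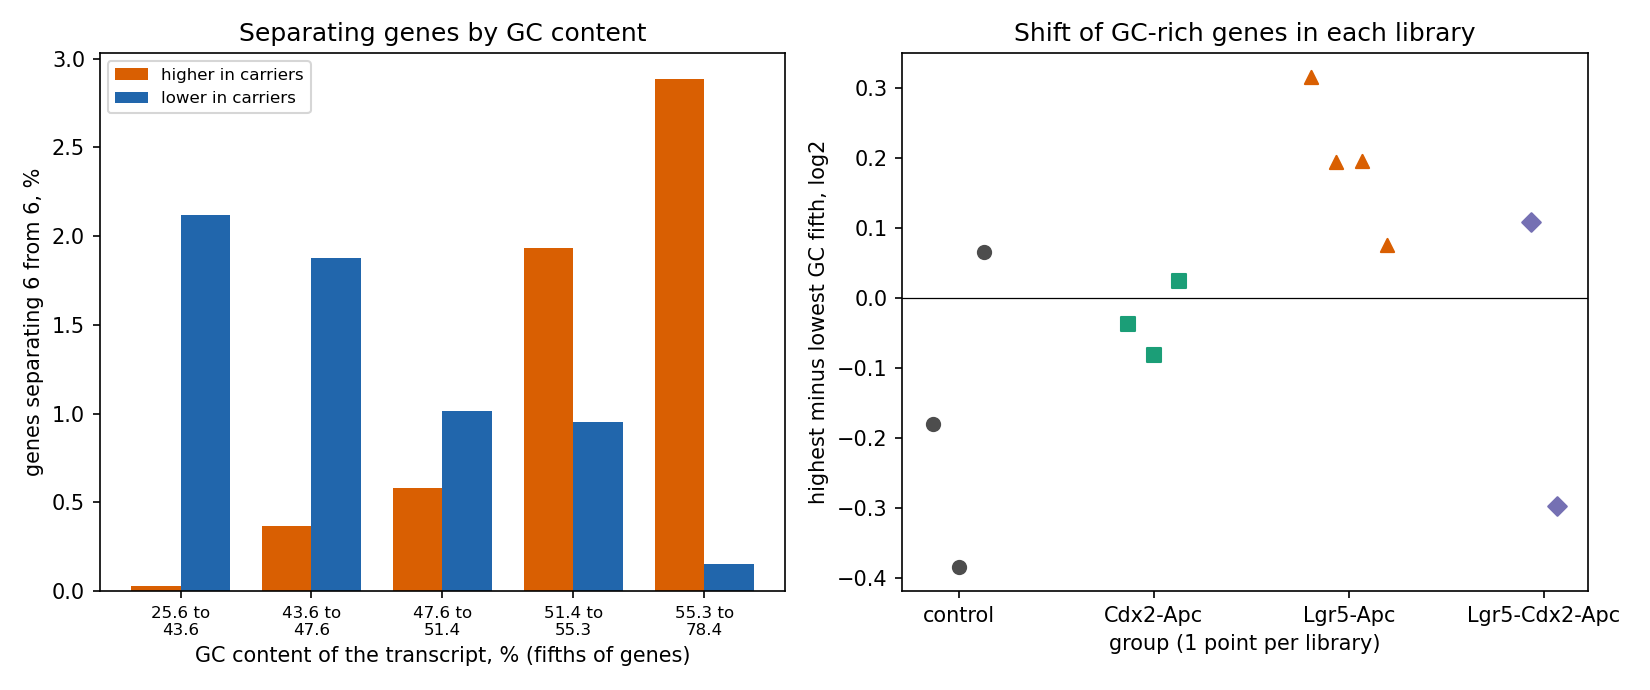
Left, percent of autosomal genes that separated the libraries in each of 5 groups of transcript GC content, higher and lower in carriers (bars). Right, median shift of the highest minus the lowest GC group in each library (log2, each gene relative to its mean over libraries); Lgr5-Apc lies above 0, and Lgr5-Cdx2-Apc replicate 2 at -0.30 among the lowest.

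Markers of several tissues differed between libraries, with carriers and non-carriers overlapping and 0 genes of these lists called. Of 28 squamous epithelium genes tested, 14 were higher and 0 lower at an unadjusted limma p below 0.05, 0 were called, and the median difference was 3.29. Among all 16610 autosomal genes, 2505 were higher and 2088 lower at that p. The cornified envelope gene Lor was at 2.68, 0.431 and 0.594 FPKM in control, 0.104, 0.278 and 2.35 in Cdx2-Apc, 11.1, 867, 484 and 0 in Lgr5-Apc, and 616 and 546 in Lgr5-Cdx2-Apc, so 4 carriers stood far above all other libraries and Lgr5-Apc replicate 4 was listed at 0. The list's mean log2(FPKM + 1) was 1.33 to 9.06 in carriers and 1.56 to 6.53 in non-carriers, with Lgr5-Apc replicate 4 the lowest of all libraries and control replicate 1 above Lgr5-Apc replicate 1. Of 19 smooth muscle genes, 18 were lower at an unadjusted p below 0.05 (median difference -1.86), with list means of 2.73 to 7.05 in carriers and 5.93 to 7.32 in non-carriers. Synm, a filament protein, was at 4.66 to 71.2 against 39.9 to 112 FPKM. Of 15 skeletal muscle genes, 13 were higher (median 2.37), and the oxygen store Mb was at 0.119 to 53.5 against 0 to 0.211 FPKM. With the squamous score as a covariate 0 genes were higher and 1 lower, and with the smooth muscle score 0 and 0. Without the 3 libraries rich in skeletal muscle genes 0 genes were called, while 512 separated higher and 471 lower; fewer libraries separate more genes by construction. Without Cdx2-Apc, whose Xist was low, 0 genes were called higher and 4 lower, and 1 of the 4 was among the 23 called lower with all libraries. Leaving out these libraries was chosen after the data were seen.

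**Figure D5:**
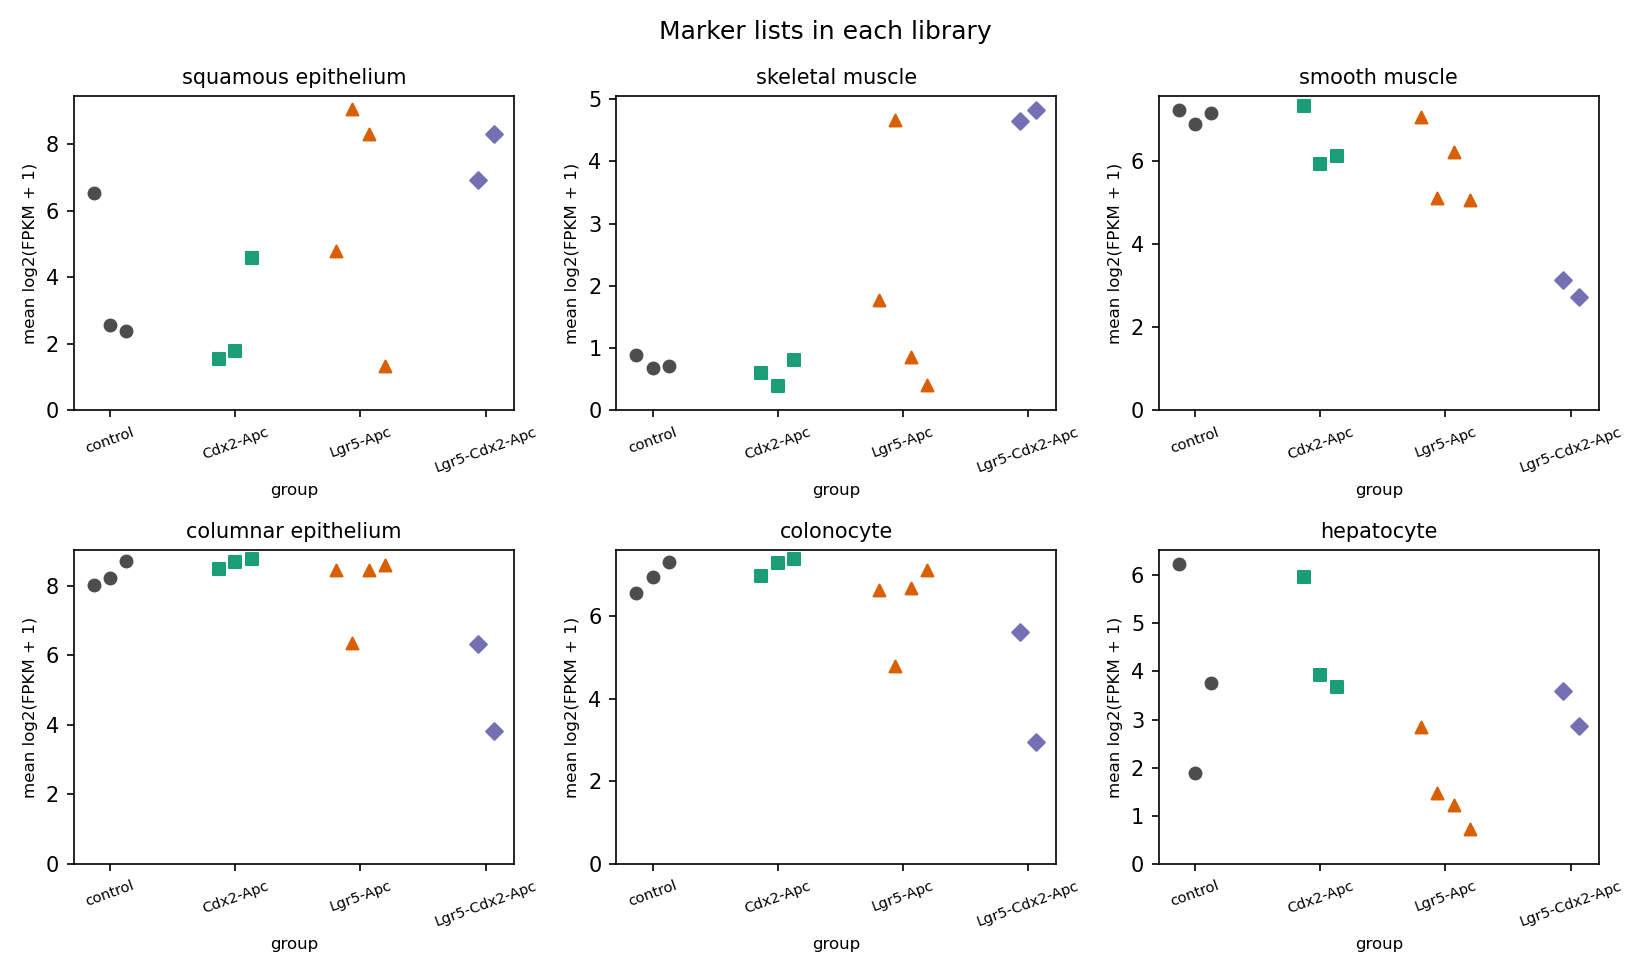
Mean log2(FPKM + 1) of 6 marker lists in each library, by group, 1 point per library. Skeletal muscle genes are high in 3 carriers (4.65 to 4.82), smooth muscle and columnar genes are lowest in Lgr5-Cdx2-Apc, and hepatocyte genes (list chosen after values were seen) are highest in control replicate 1 and Cdx2-Apc replicate 1.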

How the data were processed

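RNA-seq of mouse rectum, total RNA with a directional kit per the labels' protocols, was available as 1 table for 12 libraries. STAR, Cufflinks, Cuffdiff and the mm10 build are named in the submitters' processing notes; versions and settings are not given in the sources used here. The deposited values were taken as FPKM, inferred from Cufflinks and the values, as the table names no unit; reads per library are unknown. Symbols were placed with GENCODE M21 (95.9% matched) and otherwise RefSeq.

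Genes that reached 1 FPKM in 2 or more libraries (17360, of them 16610 autosomal) were tested as log2(FPKM + 1) with limma 3.58.1 in R 4.3.3, 6 carriers against 6 non-carriers, two-sided, with Benjamini-Hochberg adjustment over all 17360. Backgrounds were compared in a fit with 1 term per group. A gene separated the libraries if the lowest of one 6 lay above the highest of the other 6; that count has no test. The code was tested on simulated data. Named were the genes called (if over 20 in a direction, the 12 with the smallest p), the 12 with the widest gap in each direction, Apc, Lgr5, Cdx2, the smallest-p members of the lists described and separating genes within 20 Mb of Lgr5. Unnamed models and antibody segments were counted but not named under that rule; those and other genes named were chosen after their values were seen. Members and lists were chosen with earlier results of these data known. Some genes are not reported here. Alternatives covered pseudocount, filter, scaling, covariates, weights, replicate block and left-out libraries.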

Additional observations from a re-analysis of the deposited data

Results flagged for a closer look

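Of 117 sets of 4 or 6 libraries looked at over 39 named genes, 12 held a library far from the others. The rule flags about 1 in 20 sets of independent, normally spread values. These sets share libraries and hold FPKM of genes mostly named for their values, so the 12 cannot be read as an excess. Lgr5-Apc replicate 4 was that library in 8 sets over 7 genes. In it Cdx2 stood at 150.8 FPKM, far above the other carriers and the other Lgr5-Apc libraries, Fam43a at 22.7, Apc at 18.6 and Rida at 13.6 among carriers, and Lgr5 at 4.72 among Lgr5-Apc libraries. Slc16a12 (0.217 FPKM) and Fmo1 (0.255) were the lowest of Lgr5-Apc there. Control replicate 1 stood below the other non-carriers in Cox20 (50.4 FPKM) and Cd302 (6.21). Cdx2-Apc replicate 1 stood apart among non-carriers in Trim30a (5.2 FPKM), and Lgr5-Cdx2-Apc replicate 1 among carriers in Tmem5 (2.57).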

How the results depend on the processing

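Counts are limma calls higher and lower in carriers unless said otherwise, and where a count moved the cause was not tested. The 7 higher and 23 lower calls became 127 and 100 with median-of-ratios scaling, 76 and 98 with quantile normalization, 2020 and 1669 with 1 term per group, 19 and 40 with the Cdx2 driver as covariate, 2309 and 1963 with library quality weights, 0 and 5 with no filter and 0 and 4 after the GC and length correction. They were 0 and 1 with the squamous score and 0 and 0 with the smooth muscle score as covariate. They were 0 and 2 without the control group, 0 and 0 without Lgr5-Cdx2-Apc, 0 and 4 without Cdx2-Apc, and 0 and 0 without the 3 libraries rich in skeletal muscle genes or the 2 richest in hepatocyte genes. Of the 2 lower genes without control 0, and of the 4 without Cdx2-Apc 1, were among the 23. In the order of these left-out sets, separating genes numbered 480 and 781, 329 and 343, 430 and 382, 512 and 471, and 404 and 497. They numbered 305 higher with median-of-ratios scaling and 121 lower at a mean of at least 5 FPKM. Leaving out 1 library gave 0 to 1252 calls higher and 0 to 1059 lower, and 202 to 629 and 220 to 544 separating genes. In Lgr5-Apc against control, leaving out 1 library gave 0 to 1 higher and 1 to 31 lower, and at a mean of at least 5 FPKM 1 was lower. In Lgr5-Cdx2-Apc against Cdx2-Apc it gave 58 to 2679 higher and 45 to 2520 lower, and that filter 961 higher. The test of the difference between backgrounds gave 5 and 3 genes with a pseudocount of 0.1 FPKM, 118 higher with 0.5 FPKM, 364 higher with no filter, 0 and 3 at a mean of at least 5 FPKM, 121 higher with quantile normalization, and 0 to 1091 and 0 to 1231 without 1 library. Cdx2 alone of the named genes changed sign, to 0.85 with the squamous score as covariate. Over all named genes and alternatives, 737 values kept their sign and side of the threshold, 121 came to pass it and 339 no longer did. Libraries with the same replicate number did not deviate together (median r -0.02 over 15 pairs). With the replicate block, calls were 704 and 729, those in Lgr5-Apc below control 0, and those of the difference between backgrounds 39 and 13. The GC correction and the sets left out for Xist, skeletal muscle and hepatocyte genes were chosen after seeing the data. Depth in reads is unknown, so no detection limit could be given.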

Other observations

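Genes of hepatocytes, a cell type the labels do not name, were present at levels that varied by library. The list of 12 was chosen after values were seen. Albumin (Alb) was at 901.5, 34.7 and 162.7 FPKM in control, 780.6, 174.2 and 132 in Cdx2-Apc, 66.7, 19.5, 10.6 and 4.49 in Lgr5-Apc, and 116.4 and 72.4 in Lgr5-Cdx2-Apc. Of the 12 genes, 11 were lower in carriers at an unadjusted limma p below 0.05, against 2088 of all 16610 autosomal genes. Their median difference was -2.16, and 0 were called. None of these 12 separated the libraries, but 4 other genes of liver, chosen after their values were seen, did and were lower in carriers: transferrin (Trf) was at 1.77 to 25.1 against 32 to 107 FPKM, Itih2, an inhibitor of proteases in plasma, at 0.17 to 8.43 against 9.81 to 14.9 FPKM, the urate oxidase gene Uox at 0.313 to 1.38 against 1.45 to 13.7 FPKM, and the urinary protein gene Mup7 at 0 to 0.117 against 0.299 to 6.95 FPKM. Control replicate 1 and Cdx2-Apc replicate 1 had the highest list means (6.24 and 5.95). These 2 libraries were the highest non-carriers in 18 of the 207 separating lower genes (8.7%) and in 11.7% of all autosomal genes.

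Genes of T and NK cells were high in Lgr5-Cdx2-Apc, with a mean log2(FPKM + 1) of 2.29 and 2.4 against 0.19 to 0.54 in the other libraries. MHC class II genes were also highest there, at 5.13 and 5.06 against 1.61 to 3.66. Neither list held a separating gene.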
